A study of Caenorhabditis elegans with 2 samples.

Results

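The genes described are 5 genes of Caenorhabditis elegans that encode subunits of Mediator, mdt-6, mdt-15, mdt-19, mdt-22 and mdt-26, out of 19985 annotated protein-coding genes. They were chosen by name from an earlier reading of the same binding data, so the peaks at their starts are described and not tested. For each gene, peaks were collected from a promoter window that began 1000 bp before an annotated transcript start and ended 300 bp after it, with every start of the gene used. The binding data are chromatin immunoprecipitation with sequencing (ChIP-seq) for LIN-35, the worm's relative of the retinoblastoma tumour suppressor. Both samples were whole young adults of strain YL468, labelled as males and females pooled. This strain carries the allele unc-119(ed3) on chromosome III and the transgene vrIs93, which holds a LIN-35:GFP:FLAG fusion with the lin-35 3' UTR driven by the mex-5 promoter, which is active in the germ line, together with an unc-119(+) copy as rescue. The 2 samples were biological replicates of a single group, with no second condition. The labels name the antibody after lin-35 and also describe the target as an eGFP fusion, so the epitope is not settled, and each sample mixed germ line chromatin with that of the soma.

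Mediator is a large complex that carries information from DNA-bound transcription factors to RNA polymerase II at gene starts. Its head and middle modules contact the polymerase, its tail meets many activators, and a kinase module with cyclin C can attach to it and detach from it. LIN-35 binds no DNA by itself and acts with E2F-DP proteins and the other proteins of the DREAM complex, which in worms holds genes of the cell cycle and of the germ line in check.

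In these data 4 of the 5 genes had a peak in the thresholded list. That list holds 550 peaks that the authors took by irreproducible discovery rate, and 530 of them overlapped a peak of both replicates. The genes with a peak were mdt-22 and mdt-6, which encode head subunits, and mdt-19 and mdt-26, which encode subunits placed with the middle module. The fifth, mdt-15, encodes a tail subunit known in worms for its part in fat metabolism and stress responses, and had no summit in its promoter window in any list. Across all protein-coding genes 553 had a thresholded summit in the promoter window, which is 2.77%. Because the genes were picked with these peaks known, nothing is read from the difference between those shares. The count was 2 (mdt-22 and mdt-26) with a window from 500 bp upstream to 100 bp downstream, and 1 (mdt-26) when each summit went only to the nearest start. The share of all protein-coding genes was not computed for these settings, so 2.77% does not stand beside these counts.

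Sequences at 3 of the summits are shown because they differ in where the peak lies. Only the mdt-22 sequence holds an E2F word of those listed below, and other forms of E2F site were not sought. They are the plus strand of build ce11, taken from the RefSeq copy of the WBcel235 assembly. Capitals mark matches, on either strand, to an E2F word, to a short element of the kind bound by the DREAM complex (called CHR-like here), or to GCGC. For mdt-22 at II:10301084-10301184 and mdt-26 at II:5661208-5661308 the summit is base 51. For mdt-6 the summit lies in an annotated untranslated region of a neighbour, and the 59 bases shown, V:7060471-7060529, are the stretch between that neighbour and the next gene. This stretch does not include the summit or the GCGC copy nearest to it.
mdt-22: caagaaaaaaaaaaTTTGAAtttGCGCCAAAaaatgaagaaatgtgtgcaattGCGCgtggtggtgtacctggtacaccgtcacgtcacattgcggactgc
mdt-6: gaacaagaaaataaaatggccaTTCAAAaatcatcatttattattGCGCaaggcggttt
mdt-26: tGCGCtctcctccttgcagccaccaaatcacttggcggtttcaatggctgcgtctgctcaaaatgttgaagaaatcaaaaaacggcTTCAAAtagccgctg

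Each peak carries the authors' own signal value, whose scale is not stated, and a rank by that signal within its list (1 is the highest). The thresholded signals ran from 24.8 to 478 with a median of 35.0. Signals of different replicates were not compared in size. The files hold peaks and no reads, so depth is unknown. The replicate 1 and pooled lists each held 30000 peaks, background included, and the replicate 2 list held 18226.

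The peak of mdt-22 was the highest of the 4. It lay at II:10300956-10301311 with a signal of 49.6 and rank 146 in the pooled list, and its summit was 82 bp upstream of the mdt-22 start. In replicate 1 its signal was 32.4 at rank 180, with the summit 85 bp upstream. In replicate 2 the signal was 17.5 at rank 123, with the summit 69 bp upstream. The peak thus ranked 180 or better in all 3 lists, and 404 of the 550 thresholded peaks had a lower signal. The mdt-22 gene (WBGene00007022, II:10301216-10301888, plus strand, 673 bp) encodes a head subunit and lies wholly inside clpp-1, which encodes the proteolytic subunit of the mitochondrial ClpP protease and runs on the opposite strand. The summit fell in an intron of clpp-1, and 54 bp upstream of 1 of the 4 annotated clpp-1 starts. The summit lay between those starts, which point away from each other, and clpp-1 had the nearer one.

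The peak of mdt-6 (WBGene00003164, V:7058547-7059624, minus strand) lay farther from its gene. Its interval was V:7060371-7060726, and its summit was 925 bp upstream of the only annotated start of mdt-6. The pooled signal was 36.8 at rank 250. In replicate 1 the signal was 27.3 at rank 253, 889 bp upstream, and in replicate 2 it was 10.8 at rank 431, 934 bp upstream. MDT-6 is a head subunit conserved from yeast to human. Both replicates thus placed a peak far upstream of the gene, and 2 other genes stood nearer to it. The summit was 3 bp upstream of a start of Y57E12AL.1, annotated by RefSeq as a serine incorporator and transcribed away from mdt-6, and lay in the 5' UTR of another transcript of that gene. It was also 79 bp upstream of a start of Y57E12AL.6, an uncharacterised gene on the same strand as mdt-6 that ends 38 bases before mdt-6 begins. Operon annotation was not used here, so whether the pair is transcribed together, with a start other than the annotated one for mdt-6, was not examined. Near the mdt-6 start itself the lists held only low peaks. The pooled list had one of signal 4.98 at rank 22051, 269 bp downstream. Replicate 1 had one of 7.79 at rank 5287, 169 bp downstream, and one of 3.04 at rank 28996, 296 bp upstream. Replicate 2 had no other summit in the window.

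The peak of mdt-19 (WBGene00007019, III:2598053-2603212, plus strand) was close to that of mdt-6 in height. It lay at III:2597120-2597475 with a pooled signal of 35.7 at rank 265, and its summit was 755 bp upstream of the start. In replicate 1 the signal was 26.5 at rank 266, 776 bp upstream, and in replicate 2 it was 10.9 at rank 414, 727 bp upstream. The summit was intergenic, in the 1018 bases that separate mdt-19 from apb-1, a divergent gene for the beta subunit of a clathrin adaptor complex. The start of apb-1 was the nearer of the pair, 264 bp from the summit. A further summit lay inside mdt-19, beyond the window. It had a pooled signal of 14.9 at rank 1690 and lay 590 bp downstream of the start. Replicate 2 placed it at rank 522 and replicate 1 at rank 6255.

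The peak of mdt-26 (WBGene00016115, II:5661181-5665243, plus strand) was the lowest of the 4 and stood just inside the thresholded list. It lay at II:5661080-5661435 with a pooled signal of 24.9 at rank 548, and only 2 thresholded peaks had a lower signal. Its replicate 1 signal was 17.2 at rank 640 and its replicate 2 signal was 7.52 at rank 1134. Neither replicate alone put it among its own 550 highest peaks. The summits lay 64, 86 and 71 bp downstream of the start in the pooled, replicate 1 and replicate 2 lists, and the pooled summit fell in a coding exon of mdt-26. MED26, the human relative, is known to link Mediator to elongation factors. The summit was also 472 bp upstream of the start of ift-43, a gene for intraflagellar transport on the opposite strand, 394 bases from mdt-26.

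A second thresholded peak lay inside mdt-26 and was higher than the first. Its interval was II:5661645-5662000, in an intron, with the summit 629 bp downstream of the start and therefore outside the promoter window. Its pooled signal was 37.8 at rank 234. Replicate 1 placed a summit 596 bp downstream at rank 154 with a signal of 35.5. Replicate 2 had summits at 672 bp, with a signal of 6.01 at rank 2135, and at 1180 bp, with a signal of 10.5 at rank 468. The order of the peaks within mdt-26 was thus shared by the pooled list and replicate 1. In replicate 2 the nearest summit to the pooled one was lower than the promoter peak.

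**Figure D1:**
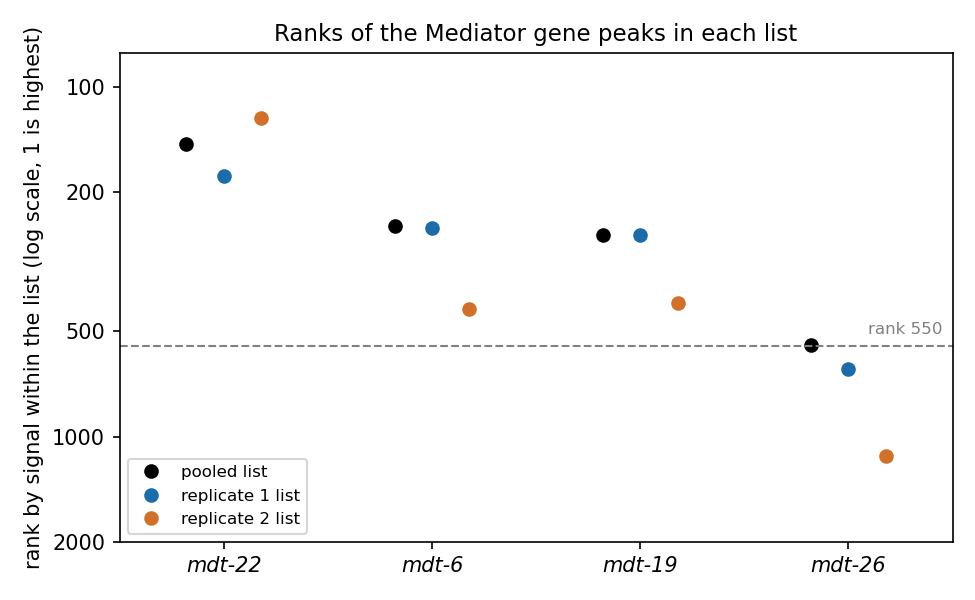
Rank by signal (vertical axis, log scale, 1 is highest) of the best promoter-window peak of each Mediator gene with a thresholded peak, in the pooled, replicate 1 and replicate 2 lists (colours). The dashed line is rank 550, the size of the thresholded list: mdt-22, mdt-6 and mdt-19 lie above it in all 3 lists, and mdt-26 lies above it in the pooled list alone, at rank 548.

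The replicates placed the 4 summits close together. The summits of replicates 1 and 2 were 45 bp apart at mdt-6, 49 bp at mdt-19, 16 bp at mdt-22 and 15 bp at mdt-26. The median over the 530 thresholded peaks that overlapped a peak of both replicates was 43 bp. Among the 550 highest peaks of each replicate, 3 of the 5 genes had a summit in both, namely mdt-6, mdt-19 and mdt-22, against 1.27% of all protein-coding genes. In the whole replicate lists 4 of the 5 had a summit in each, against 42.1% of all genes in replicate 1 and 29.9% in replicate 2. In the whole pooled list 4 of the 5 had one as well, against 42.9% of all genes.

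The gene without a peak was mdt-15 (WBGene00007016, III:5828557-5833751, minus strand), which has 4 annotated starts. The nearest pooled summits were low, one 550 bp downstream of a start with a signal of 4.68 at rank 24173, and one 2281 bp upstream with a signal of 4.28 at rank 27331. A higher pooled summit, with a signal of 13.2 at rank 2273, lay 2975 bp upstream. In replicate 1 the nearest downstream summit was 516 bp away at rank 18125, and the nearest upstream one was 2975 bp away. In replicate 2 the nearest were 1782 bp downstream at rank 17875 and 3156 bp upstream at rank 2002. All of these lay outside the window. The nearest thresholded summits were 38165 bp upstream and 105702 bp downstream. An empty window was common, since 42% of all protein-coding genes had no summit of the pooled list or either replicate list in it. A list of peaks without reads cannot show whether LIN-35 was absent there or below what the caller reported.

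**Figure D2:**
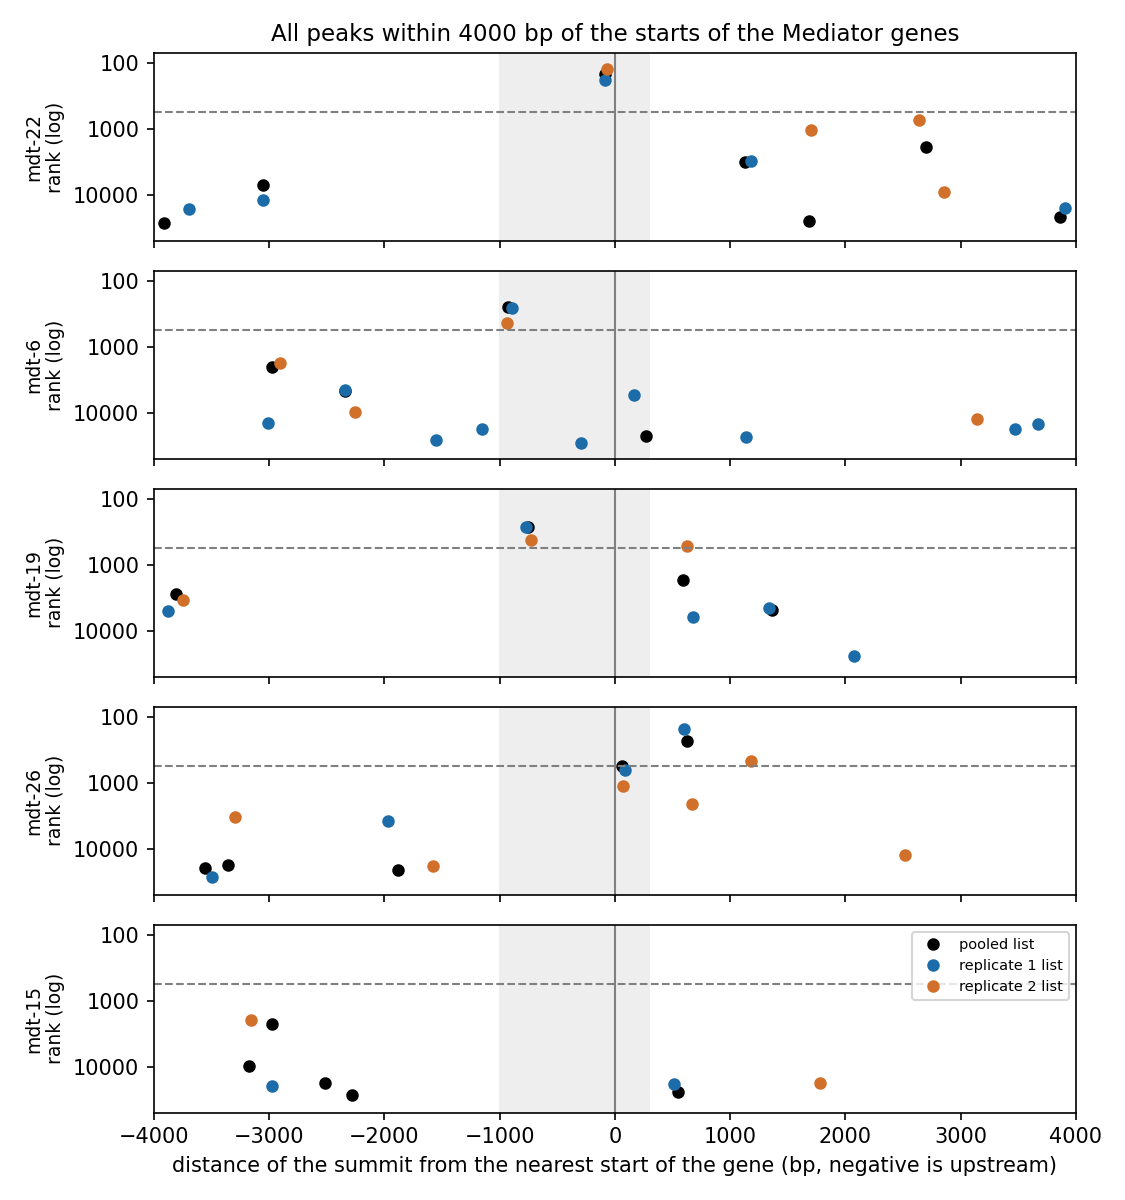
Peaks within 4000 bp of the start of each Mediator gene, by distance in the direction of transcription (horizontal axis, bp, negative is upstream) and rank by signal within the list (vertical axis, log scale). Colours are the pooled, replicate 1 and replicate 2 lists, the grey band is the promoter window and the dashed line is rank 550. The panel of mdt-15 has no point in the band, and that of mdt-26 has a second high peak 629 bp downstream.

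The 4 summits took different positions. The summits of mdt-6 and mdt-19 were 925 and 755 bp upstream, that of mdt-22 was 82 bp upstream and that of mdt-26 was 64 bp downstream. Over the 553 genes with a thresholded summit the median position was 222 bp upstream. Only 17 of them (3.07%) had the summit as far upstream as mdt-6, and 43 (7.78%) as far as mdt-19. A summit downstream of the start, as at mdt-26, was found for 38 genes (6.87%). Each of the 4 peaks also lay in the promoter window of at least 1 other protein-coding gene, which held for 336 of the 553 genes (60.8%). Of the 4 genes, mdt-26 alone had the start nearest to its summit, while 375 of the 553 genes (67.8%) did. At all 4 genes the peak cannot be assigned to the Mediator gene rather than to a neighbour from position alone. At mdt-6, mdt-19 and mdt-22 a neighbour had the nearer start, and at mdt-26 the summit also lay in the window of ift-43.

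**Figure D3:**
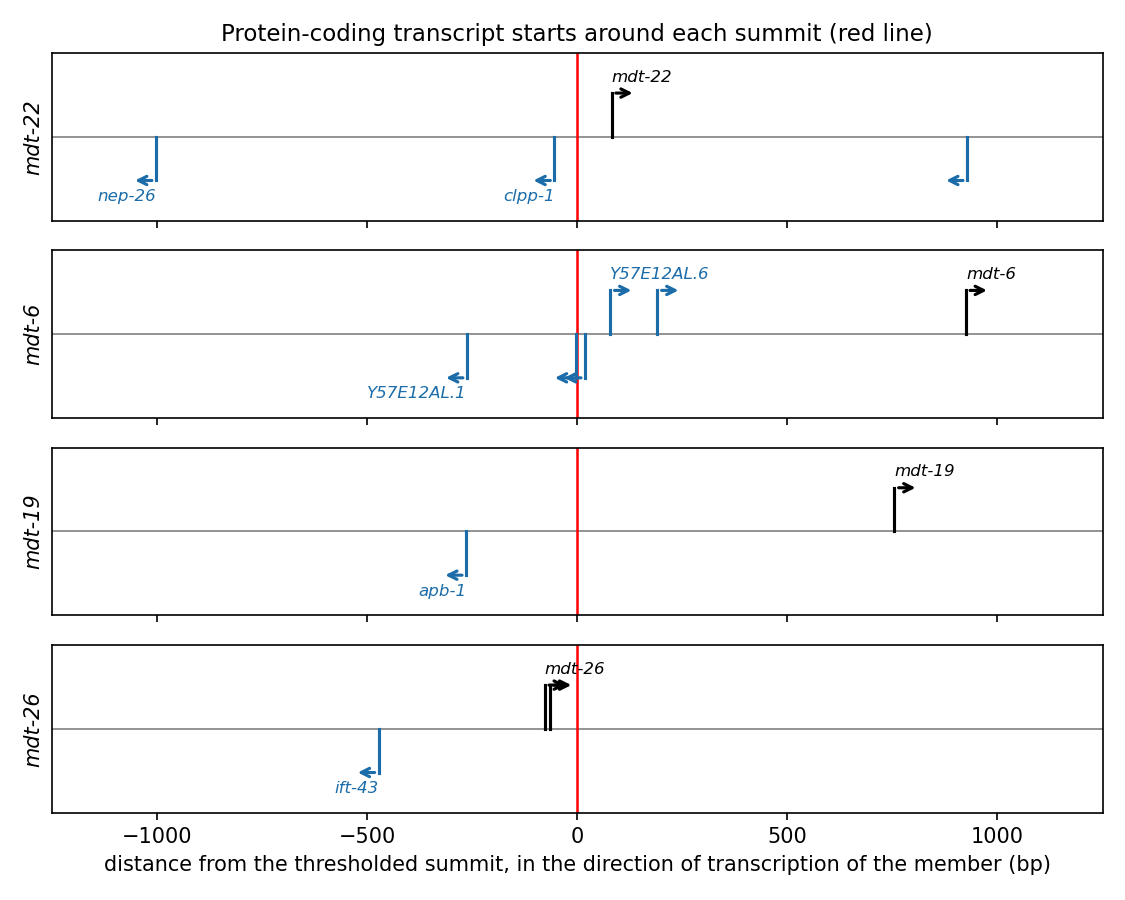
Annotated protein-coding transcript starts around the thresholded summit (red line at 0) of the 4 Mediator genes, by distance in bp in the direction of transcription of the Mediator gene. Arrows above the line run in that direction and arrows below run against it, black for the Mediator gene and blue for its neighbours. The mdt-22 and clpp-1 starts lie on either side of the summit, and the mdt-6 start is 925 bp away with 2 other genes nearer.

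Short sequence elements were counted in the 100 bp on either side of each summit, 201 bases in all. The E2F words were TTTCCCGC, TTTCGCGC, TTTGCCGC and TTTGGCGC, the CHR-like words were TTCGAA and TTTGAA, and all were sought on both strands. An E2F word lay near 1 of the 4 summits, that of mdt-22, where TTTGGCGC on the minus strand (GCGCCAAA as printed above) was centred 23.5 bp from the summit. The same words were found at 76 of 523 nuclear thresholded summits (14.5%) and in 666 of 19973 promoter windows of the same length (3.33%). A CHR-like word lay near all 4 summits, at 33.5 bp for mdt-22, 38.5 bp for mdt-26, 53.5 bp for mdt-6 and 77.5 bp for mdt-19. CHR-like words were common, at 311 of the 523 summits (59.5%) and in 11216 of the promoter windows (56.2%). Those of mdt-22, mdt-26 and mdt-6 are in the sequences above.

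The 4-base word GCGC, chosen after the sequences had been seen, lay near all 4 summits. It forms part of some of the E2F words, TTTCGCGC and TTTGGCGC. It occurred 3 times at mdt-6, 2 times at mdt-19, 2 times at mdt-22 and 4 times at mdt-26, with the nearest copy 4.5 bp from the summit at mdt-22 and 47.5 bp at mdt-26. Over all nuclear thresholded summits 349 of 523 (66.7%) held it, against 4063 of 19973 promoter windows (20.3%). At least 3 copies were found at 103 summits (19.7%) and in 396 promoter windows (1.98%). The GC content of the windows was 39.3% at mdt-6, 37.8% at mdt-19, 39.3% at mdt-22 and 51.2% at mdt-26, where part of the window is coding. The median was 39.3% over the thresholded summits and 32.8% over the promoter windows, so base composition differed between the sets in which words were counted, and its part in the GCGC shares was not tested. A match is a description of letters and not a binding site.

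The complex as a whole was read from a list of 30 written symbols, of which 29 matched an annotated gene. These 29 include the 5 genes described, which were picked with their peaks known, and 24 others. A thresholded summit lay in the window of 4 of the 29 (13.8%, against 2.77% of all protein-coding genes). These were the same 4 genes, mdt-6, mdt-19, mdt-22 and mdt-26. None of the 24 others had a thresholded summit, so that share rests wholly on the genes picked and nothing is read from it. In the whole pooled list 22 of 29 (75.9%) had a summit, against 42.9% of all genes. The count was 18 (62.1%) in replicate 1, against 42.1%, and 15 (51.7%) in replicate 2, against 29.9%. Among the highest 550 peaks of both replicates there were 3 (10.3%), against 1.27%, and these too were genes picked, mdt-6, mdt-19 and mdt-22. No summit in the pooled or either replicate list was found for 5 (17.2%), against 42% of all genes, namely mdt-15, mdt-18, mdt-20, lin-25 and dpy-22. The list was written with earlier results known, and the shares were not tested. By module, pooled summits lay at 8 of 10 head genes, 10 of 10 middle genes, 2 of 4 tail genes and 2 of 4 kinase module genes. The scaffold gene rgr-1 had a summit in replicate 2 alone, with a signal of 6.89 at rank 1450.

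The Mediator gene just outside the thresholded list was cic-1, which encodes the cyclin C of the kinase module. Its summit was 99 bp upstream of the start with a pooled signal of 23.7 at rank 621 and a replicate 1 rank of 504, and replicate 2 had none. The peak, III:2401142-2401497, was shared with strm-1. Next came mdt-8, a head subunit gene, with a pooled signal of 20.2 at rank 858 and a replicate 1 rank of 1217. Its summit was 934 bp upstream, and 271 bp upstream of Y62F5A.12. The best summit of replicate 2 in the window, at rank 4241, lay elsewhere, 234 bp upstream. Both peaks were thus lower than that of mdt-26, and neither was high in both replicates.

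Next were sop-3 and mdt-9, both listed under the middle module by symbol, although RefSeq gives the product of mdt-9 another name. The summit of sop-3 had a pooled signal of 17.3 at rank 1206 and lay 242 bp upstream, with replicate ranks of 3099 and 1694. That of mdt-9 had a pooled signal of 16.9 at rank 1264 and lay 126 bp upstream, with replicate ranks of 3881 and 3919, and it was shared with lsm-3, Y62E10A.20 and Y62E10A.23. Of the 24 Mediator genes outside the 5 described, 18 had a pooled summit, with a median best rank of 8890, against 10362 over the 8580 genes with one. A best rank of 3000 or better was reached by 7 of these 24 (29.2%) and by 1911 of all genes (9.56%).

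**Figure D4:**
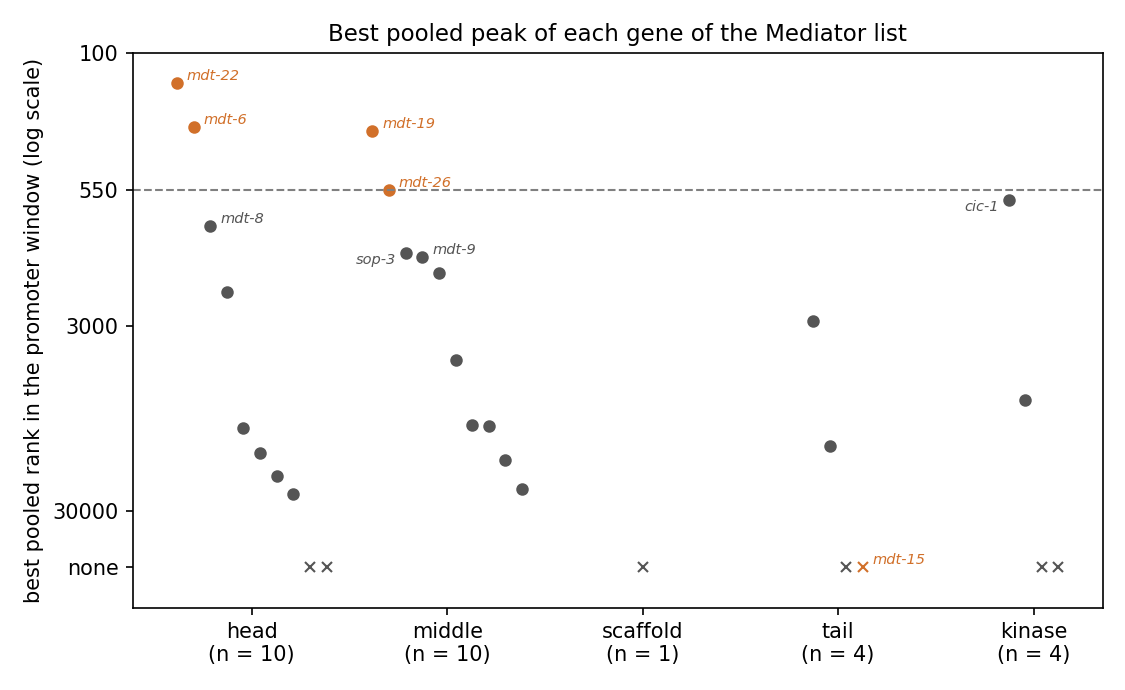
Best rank in the pooled list (vertical axis, log scale, 1 is highest) of every gene of the Mediator list, by module (horizontal axis, with the number of genes). Orange marks the 5 genes described, crosses mark genes with no pooled summit in the promoter window, and the dashed line is rank 550: mdt-22, mdt-6, mdt-19 and mdt-26 lie at or above it, with cic-1 next at rank 621.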

How the data were processed

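ChIP-seq peak lists of 2 biological replicates were used. According to the deposited text notes, alignments and a control gave a list for each replicate and a pooled list, from which the authors took the thresholded list by irreproducible discovery rate (IDR). Not given in the sources used here are the aligner, the caller and the IDR cutoff. Peak signal is the authors' deposited value, with its scale not stated. The files give no depth, so no counting interval can be given. The 4 ce10 lists were not used.

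Summits on ce11 (1-based) were assigned to genes of Ensembl release 115 (WBcel235), several genes to a summit where their windows overlapped. Sequences and product names came from RefSeq, and the summit sequence of mdt-19 is not reported here. Python 3.11.15, numpy 2.4.6, pandas 2.3.3, scipy 1.17.1 and matplotlib 3.10.9 were used, and the assignment and motif code was tested on simulated data. Promoter windows for the motif shares were the 201 bases ending at each gene's most upstream start.

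The members and the lists (Mediator, and RNA polymerase II with the general factors) were chosen with earlier results of these data known, so no test was run. In the lists the symbols mdt-1.1 and tfa-2 matched no annotated gene name, and other names of these genes were not looked up. The text names the 5 genes, genes sharing a named peak, Mediator genes with a thresholded summit, the next 4 by pooled rank, and polymerase and general factor genes with a thresholded summit. Others were named after their values were seen: rgr-1, the genes without a summit, mdt-17, let-19 and rpb-8. Alternatives were other windows, the nearest start, other numbers of peaks, single replicates and other motif windows. RefSeq starts and the GCGC word were added after the data were seen.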

Additional observations from a re-analysis of the deposited data

How the results depend on the processing

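With a promoter window from 500 bp upstream to 100 bp downstream, 2 of the 4 genes (mdt-22 and mdt-26) kept a thresholded summit, as did 2 genes of the whole Mediator list, and 1 (mdt-22) stayed among the highest peaks of both replicates. With assignment to the nearest start only, each of these 3 counts was 1, mdt-26, which reached the highest peaks of both replicates through summits inside the gene. The 3000 highest pooled peaks gave 11 of 29 Mediator genes and 10 of 45 polymerase and general factor genes, against 1911 of all protein-coding genes (9.56%). The higher 50% of the thresholded peaks gave 1 polymerase or general factor gene. For the other settings described here the share of all genes was not computed. Taking the 550 highest peaks of a single replicate, the count was 3 for the genes described with either replicate, mdt-26 being lost. It was 4 for the Mediator list with either replicate, these 3 with let-19 in replicate 2 and with cic-1 in replicate 1. For polymerase and general factors it was from 2 to 3. With 50 bp on either side of the summit, a CHR-like word lay near 2 summits. In all, 36 recomputed counts stayed within 1.5 times their value, those with RefSeq starts and most of the single-replicate counts above among them. No paired analysis was possible because there is a single group. The lists cannot show differences below what the caller reported.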

Other observations

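Genes of RNA polymerase II and the general transcription factors, which Mediator works with at gene starts, were counted in the same way from a list of 46 symbols, 45 of them matched. A thresholded summit lay in the window of 4 (8.89%, against 2.77% of all protein-coding genes), and a summit of the whole pooled list in that of 32 (71.1%, against 42.9%). Replicate 1 had a summit for 31 (68.9%, against 42.1%) and replicate 2 for 24 (53.3%, against 29.9%). The highest peaks of both replicates included 1 (2.22%, against 1.27%), and 6 (13.3%, against 42%) had no summit in the pooled or either replicate list. The gene rpb-11, for a polymerase subunit, had a signal of 94.8 at rank 50, 118 bp upstream, with replicate ranks of 43 and 119, and shared the peak with W01G7.4. The 3 others were lower. The TFIIA gene pqn-51 had a signal of 30.5 at rank 366 and a replicate 1 rank of 322, and shared the peak with K11D12.14. Its best summit in replicate 2, at rank 1630, lay elsewhere in the window, 261 bp downstream of the start. The TFIID genes taf-4 and taf-12 had signals of 27.9 and 26.4 at ranks 431 and 480, with replicate 1 ranks of 730 and 848 and replicate 2 ranks of 226 and 1384. The taf-4 peak was shared with pqn-59.

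The genes let-19, mdt-17 and rpb-8, picked after their values were seen, ranked higher in replicate 2 than in the other lists. They were not the only such genes, since mdt-22 and taf-4 also ranked highest in replicate 2. Ranks here come from lists of different length, 18226 peaks in replicate 2 and 30000 in each of the others. The kinase module gene let-19 was at rank 503 in replicate 2, 625 bp upstream of its start, had no summit in replicate 1 and was at rank 7535 in the pooled list. The head gene mdt-17 was at rank 553 in replicate 2, 11372 in replicate 1 and 1958 in the pooled list. The polymerase gene rpb-8 was at rank 267 in replicate 2, 1755 in replicate 1 and 626 in the pooled list.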
